A study of Mus musculus with 2 samples.

Results

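The 9 genes described here were chosen by symbol from the 31053 genes counted in both libraries: Spi1, Maf, Cebpa, Cebpb, Irf8, Runx1, Mitf, Bhlhe40 and Bhlhe41. All 9 members encode transcription factors with known roles in macrophages, and all 9 were found in both gene lists. Their levels were described in 1591 macrophages of the 12-week library and 1204 macrophages of the 1-week library, and set against 29 and 26 B cells and 33 and 17 dendritic cells of the same libraries.

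The cells were immune cells of mouse pancreatic islets, sorted as live (DAPI-negative), Epcam-negative and CD45-positive. Each library came from 1 pool of 6 to 8 C57BL/6J males on chow, and the animals carried no allele or agent that the labels name. One pool was labelled 12 weeks and the other 1 week; what these weeks measure is not stated, and the sample titles number the libraries as replicates. There was thus 1 library per time label, and no test between the labels was possible.

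Macrophages are made and maintained by a small set of lineage factors. PU.1, the product of Spi1, opens myeloid enhancers together with C/EBP factors and Runx1, while Irf8 pairs with PU.1 at further sites. c-Maf, Mitf and the E-box repressors Bhlhe40 and Bhlhe41 act on differentiated cells, in self-renewal, lysosome genes and cytokine genes. Several of these factors also work outside macrophages: PU.1 and Irf8 in B cells and dendritic cells, and Runx1 in most blood lineages.

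Depth was close between the libraries. The 12-week library had 12448628 unique molecular identifiers (UMIs, each a counted transcript 3' end) over 1867 barcodes, and the 1-week library 12858754 over 1551. Filters on genes, UMIs and mitochondrial share left 1751 and 1339 cells, with medians of 6827 and 7396 UMIs. The libraries shared 3 barcode sequences, 2 of them among the cells kept. Macrophages were cells of macrophage-like clusters whose complement genes C1qa, C1qb and C1qc summed to 5 UMIs or more, and B and dendritic cells were cells of their own clusters with fewer than 5. All 11 macrophage markers had UMIs in macrophages of both libraries, with 43004 and 41516 CPM in sum (a gene's UMIs scaled to a common total per class and library). They summed to 1429 and 672 CPM in B cells, with Adgre1, Csf1r, Cd68, Fcgr1 and Mrc1 at 0 in the 12-week library and Mrc1 at 0 in the 1-week library, and to 2372 and 4567 CPM in dendritic cells, with C1qc and Mrc1 at 0 in the 1-week library. Lyz2 in dendritic cells stood at 47.7% and 138% of its level in macrophages. All 10 B cell markers had UMIs in B cells of both libraries, as did 15 of 16 dendritic cell markers in dendritic cells. Macrophages also had UMIs of 9 of the 10 B cell markers, and of 14 and 16 dendritic cell markers. B cell markers summed to 7093 and 32937 CPM in B cells, against 66.7 and 77.4 in macrophages. Dendritic cell markers summed to 1718 and 1527 CPM in dendritic cells, less than their macrophage markers, against 62.3 and 77.7 in macrophages. Monocyte markers summed to 234 and 641 CPM in dendritic cells, 692 and 714 in B cells and 26.6 and 38.2 in macrophages. Scrublet called 1 doublet in each library, 0.0571% and 0.0746% of cells, so that mixed droplets were not removed by it.

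The members lie on 5 chromosomes by GENCODE coordinates on GRCm38 (mm10). Spi1 spans chr2:91082390-91115756 and Cebpb chr2:167688915-167690418, both on the plus strand. Irf8 spans chr8:120736358-120756694 (plus) and Maf chr8:115682942-115707794 (minus), and Cebpa spans chr7:35119293-35121928 (plus). Runx1 spans chr16:92601466-92826149 (minus), and Mitf chr6:97807052-98021349 (plus), Bhlhe40 chr6:108660629-108666925 (plus) and Bhlhe41 chr6:145858243-145865558 (minus) share a chromosome. Cebpb overlaps Tmem189 on the opposite strand, which itself had 2247 and 1773 UMIs in macrophages at 12 weeks and 1 week. No source used here states whether reads were counted by strand, so reads of the pair may have been split between them. Irf8 overlaps Gm20388 on the same strand, which had 0 UMIs, and the genes that overlap Maf, Cebpa, Runx1 and Bhlhe40 had at most 13.

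Upstream sequence is shown for 3 members: Bhlhe41 and Cebpa, which were almost or wholly absent from 1 of the other classes, and Irf8, which had fewer CPM in macrophages than in B cells. RefSeq promoters of GRCm38.p6 were matched for 6 of the 9 members, with 10 starts in all, and the 250 bases before each start were searched on both strands. The palindromic E-box CACGTG, which Mitf, Bhlhe40 and Bhlhe41 proteins bind, was found upstream of Bhlhe41 and of the first of the Runx1 starts, and in 6.02% of 32851 promoters. The C/EBP palindrome TTGCGCAA and the PU.1 motif GAGGAAGT were in none of the 10 windows (0.164% and 2.44% of all), the RUNX motif TGTGGT in 1 (14.0% of all) and CCAAT in 5 (33.8% of all). A match describes letters and not binding. The first sequence covers chr6:145865559-145865670 on the minus strand, the part of the Bhlhe41 window outside the annotated gene, with the E-box in capitals. The second covers chr8:120736108-120736357 on the plus strand, before the first Irf8 start, with the CCAAT match of the opposite strand in capitals. The third covers chr7:35119043-35119292 on the plus strand, before Cebpa, and holds none of the motifs.
Bhlhe41: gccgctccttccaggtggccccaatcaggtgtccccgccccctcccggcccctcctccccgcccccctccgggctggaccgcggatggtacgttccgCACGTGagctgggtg
Irf8: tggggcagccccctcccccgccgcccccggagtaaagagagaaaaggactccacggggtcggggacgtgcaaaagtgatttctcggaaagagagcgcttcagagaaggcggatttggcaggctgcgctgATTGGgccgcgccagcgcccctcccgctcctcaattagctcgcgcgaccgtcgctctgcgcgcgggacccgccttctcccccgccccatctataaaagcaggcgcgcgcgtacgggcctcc
Cebpa: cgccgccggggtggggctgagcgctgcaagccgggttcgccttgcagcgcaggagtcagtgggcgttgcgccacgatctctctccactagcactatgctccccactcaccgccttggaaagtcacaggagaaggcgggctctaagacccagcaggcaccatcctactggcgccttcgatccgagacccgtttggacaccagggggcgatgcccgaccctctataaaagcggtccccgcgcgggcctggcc

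In macrophages the 3 highest members by UMI, Cebpb, Spi1 and Cebpa, were the same in both libraries. A 3' library gives at most 1 UMI per transcript, so counts were not divided by gene length, and the order is of captured 3' ends. After each cell was thinned to 3000 UMIs, which 1502 and 1051 macrophages reached (89 and 153 shallower ones were left out), Cebpb was highest at 3.01 UMIs per cell at 12 weeks and 2.25 at 1 week. Spi1 came next with 1.22 and 1.44, then Cebpa with 0.672 and 0.636. Runx1 (0.445 and 0.463) and Irf8 (0.361 and 0.468) changed places between the libraries, and their 95% counting intervals overlapped at 1 week. The other 4 members lay between 0.0952 and 0.152 UMIs per cell at 12 weeks and between 0.0733 and 0.205 at 1 week, where Bhlhe40 was the highest of them, and their order differed between the libraries. At 12 weeks Mitf and Maf, at 0.0952 and 0.0999, did not differ beyond their intervals.

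**Figure D1:**
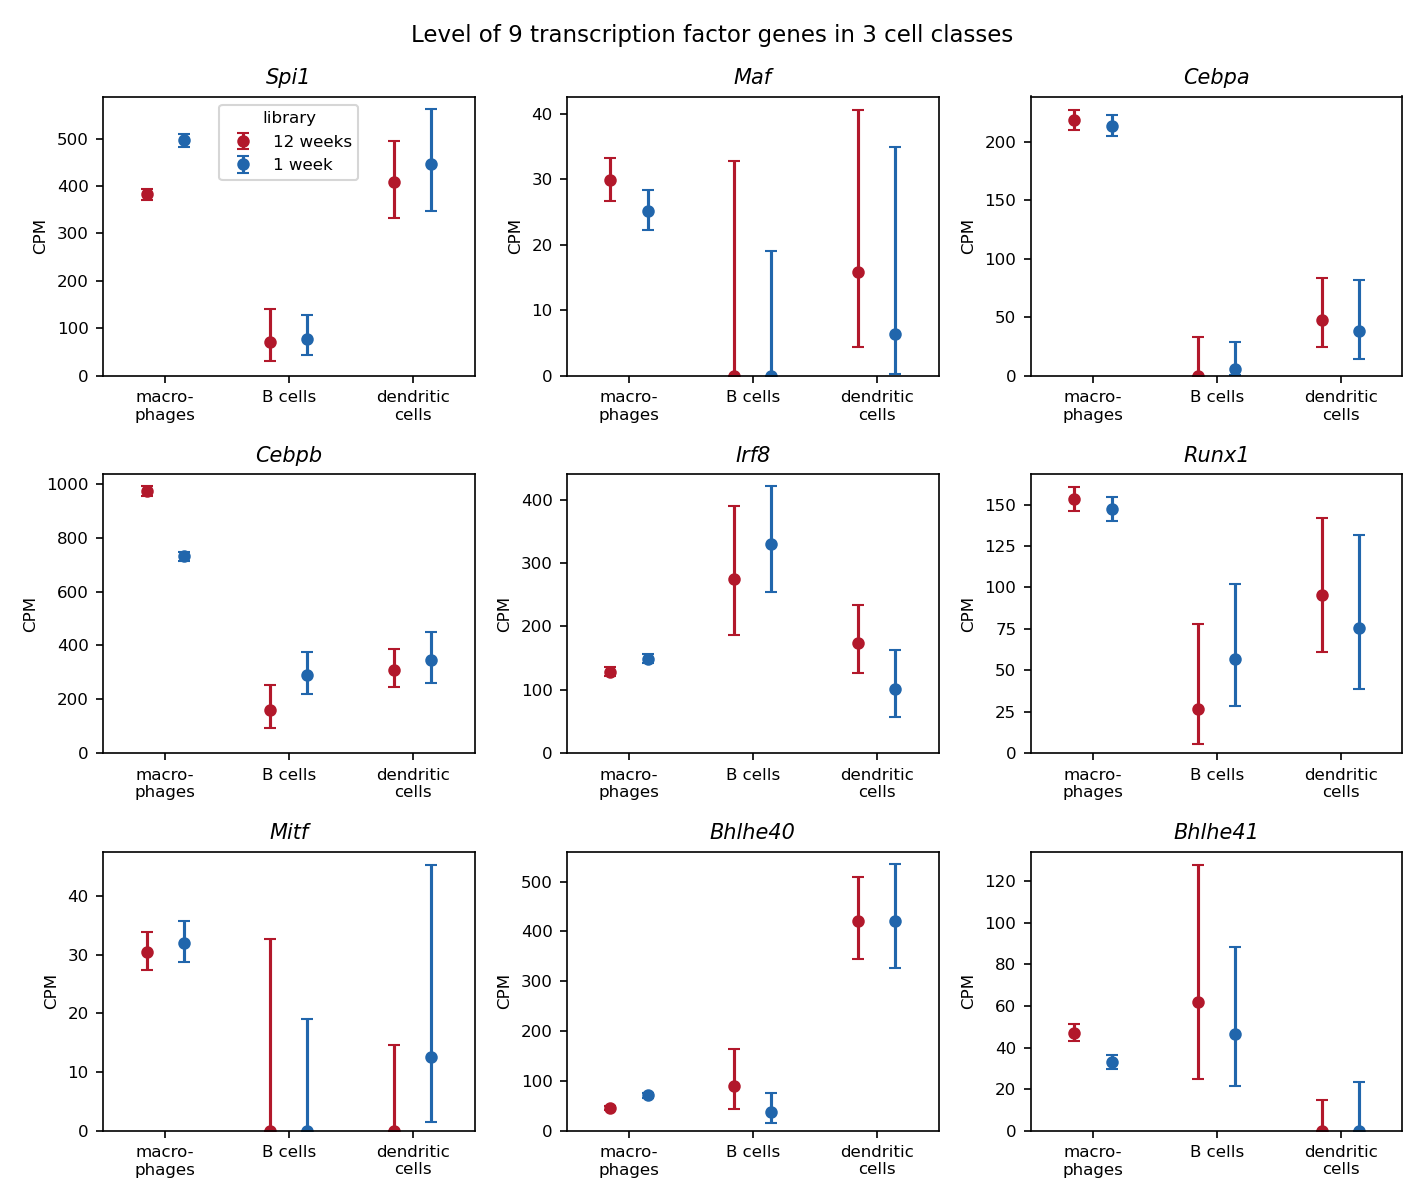
CPM (UMIs scaled to a common total; linear axis from 0) of each member in macrophages, B cells and dendritic cells, for the 12-week library (red, left) and the 1-week library (blue, right). Points are sums over the cells of a class and bars are exact 95% Poisson intervals of counting error; Cebpa, Cebpb and Runx1 were highest in macrophages in both libraries, Irf8 in B cells and Bhlhe40 in dendritic cells.

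Both C/EBP factors were higher in macrophages than in either other class. Cebpa encodes a factor needed to form granulocyte and macrophage progenitors. It had 218 and 214 CPM in 12-week and 1-week macrophages, against 0 and 5.17 in B cells and 47.6 and 37.7 in dendritic cells. The macrophage values lay above all others in both libraries. Against dendritic cells the log2 difference was 2.54 ± 0.34 (SE; edgeR quasi-likelihood test, adjusted p = 8.61e-05). Against B cells the test also called it higher (adjusted p = 5.51e-06), but all B cells together held 1 Cebpa UMI, so the size is given as a ratio of 66.1 with a 95% counting interval from 11.9 to 2611.

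Cebpb encodes the C/EBP factor that responds to inflammatory signals. It had 974 and 731 CPM in macrophages at 12 weeks and 1 week, 160 and 290 in B cells, and 309 and 346 in dendritic cells. It was higher in macrophages by 1.92 ± 0.33 on the log2 scale against B cells (adjusted p = 0.000378, edgeR) and by 1.62 ± 0.31 against dendritic cells (adjusted p = 0.00141, edgeR). Each library alone, rescaled on its own, gave a B cell difference of 3.04 at 12 weeks and 1.26 at 1 week. The plain log2 ratios of CPM were 2.61 and 1.34. Of the 56 Cebpb UMIs in 1-week B cells, 20 were in 1 cell. Leaving out the B cell richest in Cebpb from each library, chosen after seeing the data, can only lower the B cell level. The difference was then 2.39 ± 0.31 (adjusted p = 7.47e-06, edgeR). With B and dendritic cells taken by a marker gate in place of clusters, the B cell difference was 1.11 ± 0.51 (adjusted p = 0.175, edgeR), and it was past the threshold of 0.05 in 12 of 14 alternative settings. Each edgeR fit used 6 summed profiles, 1 per class and library, with the library as a block. The fit left 2 residual degrees of freedom per gene, and edgeR also drew its estimate of spread from the other genes tested. The p-values depend on that pooling over genes, and cover no more than how class differences varied between these pools.

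Spi1 was shared with dendritic cells. Macrophages had 383 and 497 CPM at 12 weeks and 1 week, B cells 71.0 and 77.6, and dendritic cells 409 and 446. Macrophages were higher than B cells by 2.59 ± 0.31 (log2; adjusted p = 1.49e-05, edgeR). The difference from dendritic cells was 0.25 ± 0.23 (adjusted p = 0.481, edgeR), and the intervals of both classes overlapped in each library.

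Runx1, the core-binding factor that works beside PU.1 in early blood cells, had 153 and 147 CPM in macrophages, 26.6 and 56.9 in B cells and 95.2 and 75.4 in dendritic cells. It was higher in macrophages than in B cells by 1.75 ± 0.40 on the log2 scale (adjusted p = 0.00271, edgeR). Each library alone, rescaled on its own, gave 2.93 at 12 weeks and 1.29 at 1 week. The plain log2 ratios of CPM were 2.52 and 1.37, and the 12-week B cell value rests on 3 UMIs. The edgeR call against B cells held in 11 of 13 alternative settings. Under the marker gate the difference from B cells was 1.84 ± 0.56 (adjusted p = 0.0586, edgeR). The difference from dendritic cells, 1.01 ± 0.31 (adjusted p = 0.0271, edgeR), was past the threshold in 7 of 13 alternative settings, where adjusted p ran from 0.0115 to 0.362. Scaling by library size alone moved the median gene by -0.22 on the log2 scale in this contrast, and Runx1 then stood at 0.79 ± 0.32 with an adjusted p of 0.0876.

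Irf8 went the other way against B cells. It encodes an interferon regulatory factor needed for several dendritic cell and monocyte lineages and active in germinal centre B cells. Macrophages had 128 and 149 CPM at 12 weeks and 1 week, against 275 and 331 in B cells and 175 and 101 in dendritic cells. Of the 64 Irf8 UMIs in 1-week B cells, 27 were in 1 cell. Irf8 was lower in macrophages than in B cells by 1.11 ± 0.28 on the log2 scale (a difference of -1.11; adjusted p = 0.0056, edgeR). The difference from dendritic cells was 0.17 ± 0.30 (adjusted p = 0.74, edgeR). With the B cell richest in Irf8 left out of each library, an alternative chosen after seeing the data that can only lower the B cell level, B cells had 230 and 198 CPM. The difference was then -0.58 ± 0.29 (adjusted p = 0.116, edgeR) and no longer past the threshold. Without the filter on low counts the B cell difference had an adjusted p of 0.107 (edgeR). Over all alternatives adjusted p ran from 0.00344 to 0.25. Each library alone, rescaled on its own, gave -0.66 at 12 weeks and -1.22 at 1 week. The plain log2 ratios of CPM were -1.10 and -1.15, close to each other.

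The E-box repressors Bhlhe40 and Bhlhe41, close paralogs, differed in dendritic cells, where Bhlhe40 was high and Bhlhe41 had no UMI. Bhlhe40 had 45.5 and 70.5 CPM in macrophages at 12 weeks and 1 week, 88.8 and 36.2 in B cells, and 421 and 421 in dendritic cells. The 12-week B cell value rests on 10 UMIs in 3 cells, 8 of them in 1 cell. The macrophage values lay far below those of dendritic cells in both libraries, and the difference was -2.67 ± 0.27 (log2; adjusted p = 7.14e-06, edgeR). Against B cells it was 0.06 ± 0.43 (adjusted p = 0.918, edgeR). With the B cell richest in Bhlhe40 left out of each library, which can only lower the B cell level, B cells had 18.5 and 21.1 CPM and the difference was 1.58 ± 0.52 (adjusted p = 0.0235, edgeR).

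Bhlhe41 had 47.0 and 33.0 CPM in macrophages and 62.1 and 46.6 in B cells, and no UMI among the 411141 of dendritic cells. Taking 3 UMIs over both libraries as the floor that a count of 0 allows, macrophages were at least 5.50-fold higher than dendritic cells, and the edgeR test called the difference (adjusted p = 0.000841). Macrophages and B cells differed by -0.40 ± 0.44 (log2; adjusted p = 0.48, edgeR).

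Maf and Mitf were low in all classes, macrophages included. They did not pass the expression filter and were not tested. Maf, which encodes c-Maf, a factor of tissue macrophages and of some T cells, had 29.9 and 25.2 CPM in macrophages at 12 weeks and 1 week, 0 and 0 in B cells and 15.9 and 6.28 in dendritic cells. Mitf, a member of the MiT/TFE family that drives lysosome genes, had 30.5 and 32.1 in macrophages, 0 and 0 in B cells and 0 and 12.6 in dendritic cells. Against a floor of 3 UMIs over both libraries, macrophages were at least 2.81-fold (Maf) and 3.19-fold (Mitf) higher than B cells. Dendritic cells held 5 Maf UMIs and 2 Mitf UMIs, which gave ratios of 2.27 (95% counting interval 0.966 to 7.01) and 6.43 (1.77 to 53.2). The Maf interval includes 1, so that a difference from dendritic cells was not detectable at this depth.

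Of the 9 members, 7 passed the filter in each contrast, and 4 were higher and 1 lower in macrophages both against B cells and against dendritic cells. The background was broad: against B cells, macrophages were higher in 27.3% and lower in 18.2% of the 3034 genes in the fit, and against dendritic cells in 18.1% and 9.79%. The median log2 difference of the 7 members was 1.75 against B cells and 1.01 against dendritic cells, beside 0.07 and 0.10 over all genes tested. With scaling by library size alone, 369 genes were higher and 341 lower in macrophages than in dendritic cells, compared with 549 and 297 under TMM scaling.

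Macrophage marker transcripts seen in B cells were taken as a rough background level. In low-C1q B cells the 8 macrophage marker genes examined stood at 0% to 4.34% of the macrophage level at 12 weeks and at 0% to 7.94% at 1 week. Spi1 stood at 18.6% and 15.6%, Cebpb at 16.4% and 39.6% and Runx1 at 17.4% and 38.6%, all above that range as point values. The 12-week Runx1 value in B cells rests on 3 UMIs. Its counting interval, 5.49 to 77.8 CPM against 153 CPM in macrophages, reaches down into the marker range. Cebpa (0% and 2.42%), Maf (0% and 0%) and Mitf (0% and 0%) lay within the marker range. In dendritic cells the same markers ranged more widely, from 2.75% to 53.4% at 12 weeks and from 0% to 138% (Lyz2) at 1 week. A range that passes the macrophage level itself cannot serve as a background. Cebpa, at 21.8% and 17.7% in dendritic cells, could therefore not be judged against it. The limit on C1q took out 2 of 31 B cells at 12 weeks but 15 of 41 at 1 week, and 4 of 37 and 5 of 22 dendritic cells. With no limit, edgeR called 0 members against B cells at an adjusted p under 0.05 (5 were higher at an unadjusted p under 0.05), and against dendritic cells it called Bhlhe41 higher and Bhlhe40 lower. The differences from B cells were then 1.71 ± 0.48 for Spi1, 2.13 ± 0.63 for Cebpa, 1.63 ± 0.63 for Cebpb, 1.19 ± 0.53 for Runx1 and -0.70 ± 0.33 for Irf8 on the log2 scale. Those from dendritic cells were 2.23 ± 0.63 for Cebpa, 1.18 ± 0.59 for Cebpb and 0.95 ± 0.52 for Runx1.

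**Figure D2:**
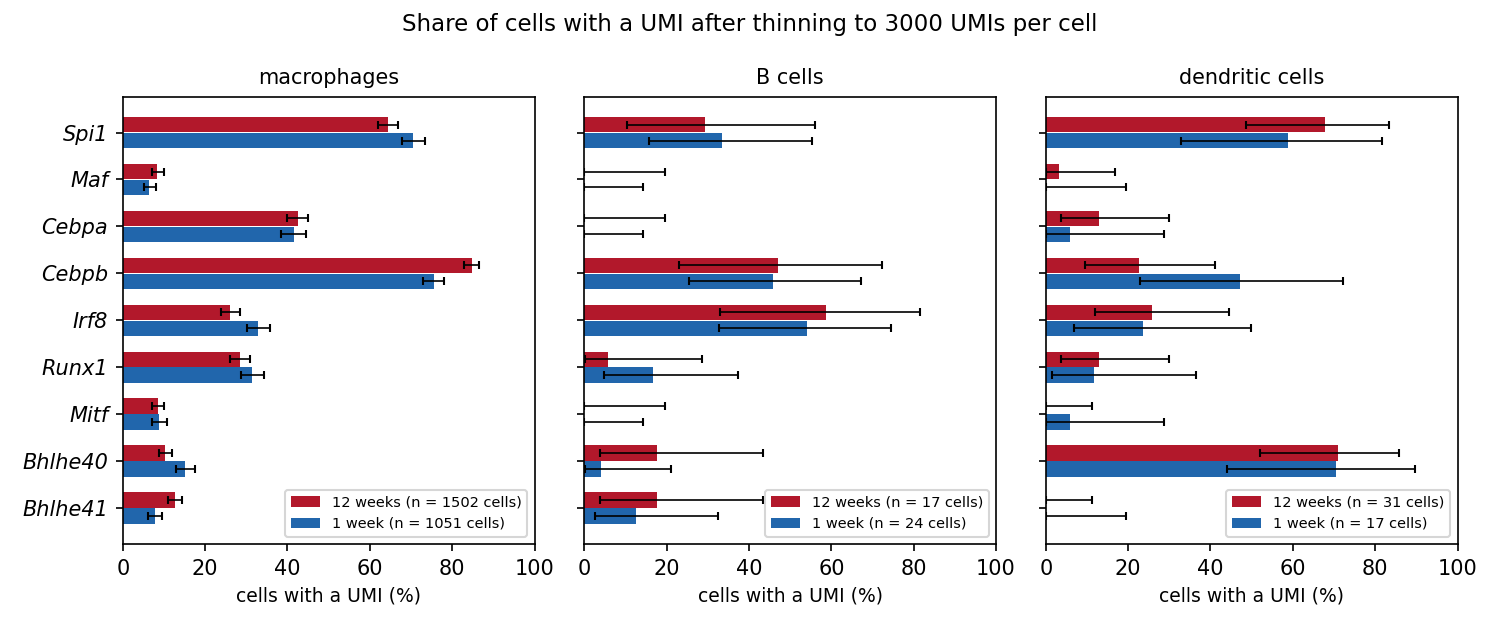
Percent of cells with at least 1 UMI of each member after thinning to 3000 UMIs per cell, in macrophages (left), B cells (middle) and dendritic cells (right), for the 12-week (red) and 1-week (blue) libraries. Bars are shares of cells and whiskers exact 95% Clopper-Pearson intervals; Cebpb (84.8% and 75.5%) and Spi1 (64.5% and 70.6%) were found in most macrophages, and Maf and Mitf in under 10%.

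In single macrophages Cebpb and Spi1 were also the members seen most often. At 3000 UMIs, Cebpb had a UMI in 84.8% (95% Clopper-Pearson interval 82.8 to 86.5) of 12-week and 75.5% (72.8 to 78.1) of 1-week macrophages. Spi1 was seen in 64.5% and 70.6%, Cebpa in 42.5% and 41.5%, Runx1 in 28.4% and 31.5% and Irf8 in 26.1% and 32.9%. Bhlhe41 was seen in 12.6% and 7.71%, Bhlhe40 in 10.3% and 15.1%, Mitf in 8.52% and 8.85% and Maf in 8.39% and 6.47%. Before thinning the median macrophage had 6877 and 7291.5 UMIs, so a cell without a UMI at 3000 is not a cell without the transcript.

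B and dendritic cells at the same depth were few: 17 and 24 B cells and 31 and 17 dendritic cells. Irf8 had a UMI in 58.8% (32.9 to 81.6) and 54.2% (32.8 to 74.4) of B cells, and Bhlhe40 in 71.0% (52.0 to 85.8) and 70.6% (44.0 to 89.7) of dendritic cells. Cebpa was seen in 0 of 17 and 0 of 24 B cells, which by 3 counts of the total allows shares of cells with a UMI of up to 17.6% and 12.5%, and Bhlhe41 in 0 of 31 and 0 of 17 dendritic cells, which allows up to 9.68% and 17.6%. The two-sided 95% Clopper-Pearson upper bounds are higher, at 19.5% and 14.2% for Cebpa in B cells and 11.2% and 19.5% for Bhlhe41 in dendritic cells. These intervals and limits cover counting error only.

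The median macrophage held UMIs of 3 members in both libraries, against 2 in B cells and in dendritic cells. No member was found in 13 macrophages of the 12-week library (0.866%) and 16 of the 1-week library (1.52%), and 7.52% and 8.94% held 5 or more. Spi1, Cebpa and Cebpb were found together in 22.0% (19.96 to 24.2) and 23.6% (21.1 to 26.3) of macrophages, where the product of their separate shares gives 23.2% and 22.1%. The joint share thus lay within counting error of independent detection in both libraries.

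The members hardly varied together from cell to cell. Pearson correlations of log2(thinned UMIs + 1), given as descriptions over 1502 and 1051 macrophages that share a library and a depth, ran from -0.089 to 0.113 over the 36 pairs at 12 weeks and from -0.076 to 0.120 at 1 week, with medians of -0.00388 and -0.00492. Over all pairs of the 2501 genes found in at least 10% of macrophages of both libraries, 90% of correlations lay between -0.0510 and 0.0555 at 12 weeks and between -0.0639 and 0.0703 at 1 week. Only 6 of the members were among those 2501 genes, so pairs with Maf, Mitf or Bhlhe41 were set against genes detected more often. In 20 of the 36 pairs the sign was the same in both libraries.

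**Figure D3:**
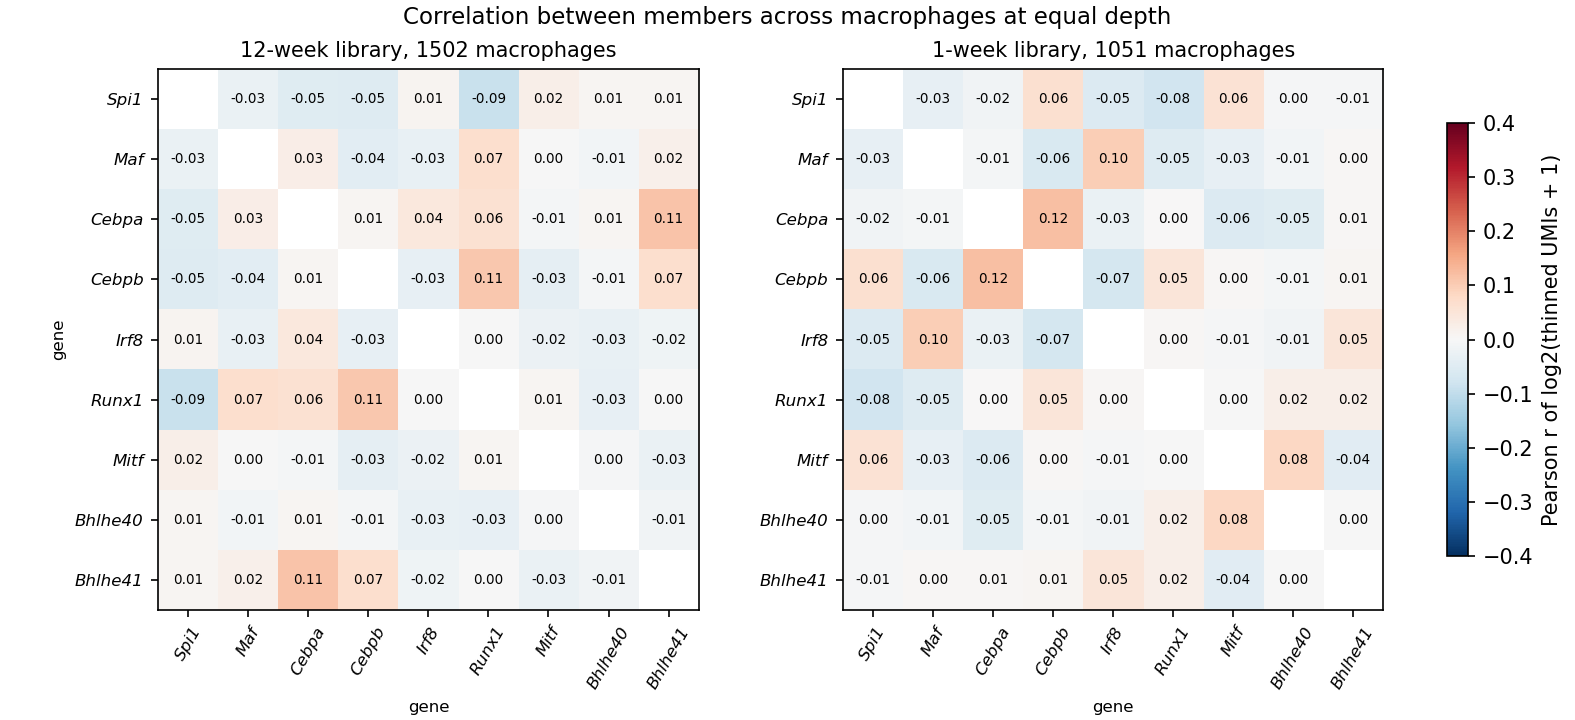
Pearson correlation of log2(thinned UMIs + 1) for each pair of members across 1502 macrophages of the 12-week library (left) and 1051 of the 1-week library (right), on a colour scale from -0.4 to 0.4. The values lie between -0.089 and 0.113 and between -0.076 and 0.120, and the pair Spi1 and Runx1 is negative in both.

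Spi1 and Runx1 lay below that range in both libraries, and other pairs lay above or below it in 1 library. Those below it in 1 library were Spi1 and Cebpb (-0.0529 at 12 weeks) and Cebpb and Irf8 (-0.0693 at 1 week). Above it at 12 weeks alone were Cebpa and Bhlhe41 (0.113), Cebpb and Runx1 (0.107), and Maf and Runx1 (0.0672). So were Cebpb and Bhlhe41 (0.0663) and Cebpa and Runx1 (0.0618). Above it at 1 week alone were Cebpa and Cebpb (0.120), Maf and Irf8 (0.0982), and Mitf and Bhlhe40 (0.0821). Spi1 and Runx1 correlated at -0.0894 and -0.0763 at 12 weeks and 1 week; over the settings tried the values ran from -0.135 to -0.0649 and from -0.0888 to -0.0109. After the mean of each cluster was taken out, they were -0.0497 and -0.0569. Cebpb and Runx1 correlated at 0.107 and 0.0477 (0.0668 to 0.131 and 0.0109 to 0.104 over settings), and at 0.0603 and 0.00856 after cluster means were taken out. Cebpa and Cebpb, which can pair as proteins, correlated at 0.00815 and 0.120, with ranges from 0.00243 to 0.0775 and from 0.116 to 0.188. With cluster means taken out this pair stood at -0.0123 and 0.0589. These are weak correlations in sparse counts, and the paralogs Bhlhe40 and Bhlhe41 stood at -0.0136 and -0.00131.

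For each member the 3 genes with the highest correlation in the lower of the 2 libraries were taken from 2501 genes. For Cebpb they were Hmox1, the heme-degrading enzyme (0.381 and 0.380 at 12 weeks and 1 week), the chemokine Cxcl2 (0.324 and 0.359) and the ferritin light chain Ftl1 (0.276 and 0.368). For Spi1 they were Slfn2 (0.225 and 0.186), Marcks (0.225 and 0.179) and Tnfaip2 (0.152 and 0.151). For Runx1 they were the AP-1 subunit Fosb (0.167 and 0.171), Zfand5 (0.194 and 0.151) and the heat shock co-chaperone Dnajb1 (0.198 and 0.143).

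Among the nearest genes of Cebpa were the AP-1 subunit Fos (0.111 and 0.111) and the stress factor Atf3 (0.0986 and 0.0953). Mitf shared Slfn2 (0.125 and 0.132) and Marcks (0.137 and 0.113) with Spi1, beside Bcl2a1d (0.124 and 0.123). Bhlhe40 was nearest to Vim (0.0963 and 0.135), Malt1 and Il1rn, and Bhlhe41 to the heat shock protein gene Hspa8 (0.0913 and 0.0960), the lysosomal lipase gene Lipa and the proton pump gene Atp6v1h. For Irf8 (Ly86, F11r and Jund) and Maf (Cyth4, Zfp36l2 and Mrps16) none of the 3 nearest genes passed 0.1 in either library.

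Summed gene programs gave the same contrast between Spi1 and Runx1. Heat shock genes correlated with Spi1 at -0.183 and -0.162 and with Runx1 at 0.238 and 0.112 at 12 weeks and 1 week. Immediate early genes, which are switched on within minutes of a stimulus and also by tissue dissociation, correlated with Spi1 at -0.160 and -0.164, with Runx1 at 0.228 and 0.159 and with Cebpb at 0.289 and 0.202. The inflammatory cytokine program stood at 0.271 and 0.262 with Cebpb. The part of dissociation in these values was not tested. Percent mitochondrial UMIs correlated with Spi1 at 0.0648 and 0.0727 and with Cebpb at -0.0536 and -0.121, and log2 total UMIs before thinning with Runx1 at -0.0403 and -0.102.

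Levels also differed between clusters of macrophages, which were built without the members. The cells clustered are the cells described, so no test was made. In the 9 macrophage clusters with at least 20 thinned cells in each library, Spi1 was lowest in cluster 5, led by the heat shock genes Hspa1b and Hspa1a (0.788 and 1.08 UMIs per cell at 12 weeks and 1 week), and highest in cluster 1, led by Npnt and Cxcl3 (1.74 and 1.88). At 1 week the 95% counting interval of Spi1 in cluster 5, 0.873 to 1.33, held the values of clusters 8 (1.13) and 2 (1.14). Runx1 was high in the same cluster 5 (0.788 and 0.659) and in cluster 2, led by Il1a and Cxcl2 (0.680 and 0.776). Cebpb was highest in cluster 3, led by Rgcc, Hspa1b and Grasp and holding Hmox1 among its leaders (3.95 and 3.79), and lowest in cluster 4 (1.97 and 1.29).

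Cluster 4 was led by the neutrophil genes S100a9 and S100a8 and by interferon-induced genes, though 92.1% of its cells had at least 5 C1q UMIs. Irf8 was highest there among these 9 clusters, with 0.730 and 0.769 UMIs per cell. Mitf was highest in cluster 8, led by Il10, Cxcl3 and Tnfsf9 (0.299 and 0.256). Cebpa and Bhlhe41 were both highest in cluster 6, led by the iron exporter gene Slc40a1, with 0.867 and 1.60 for Cebpa and 0.227 and 0.4 for Bhlhe41, from 128 and 20 cells.

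**Figure D4:**
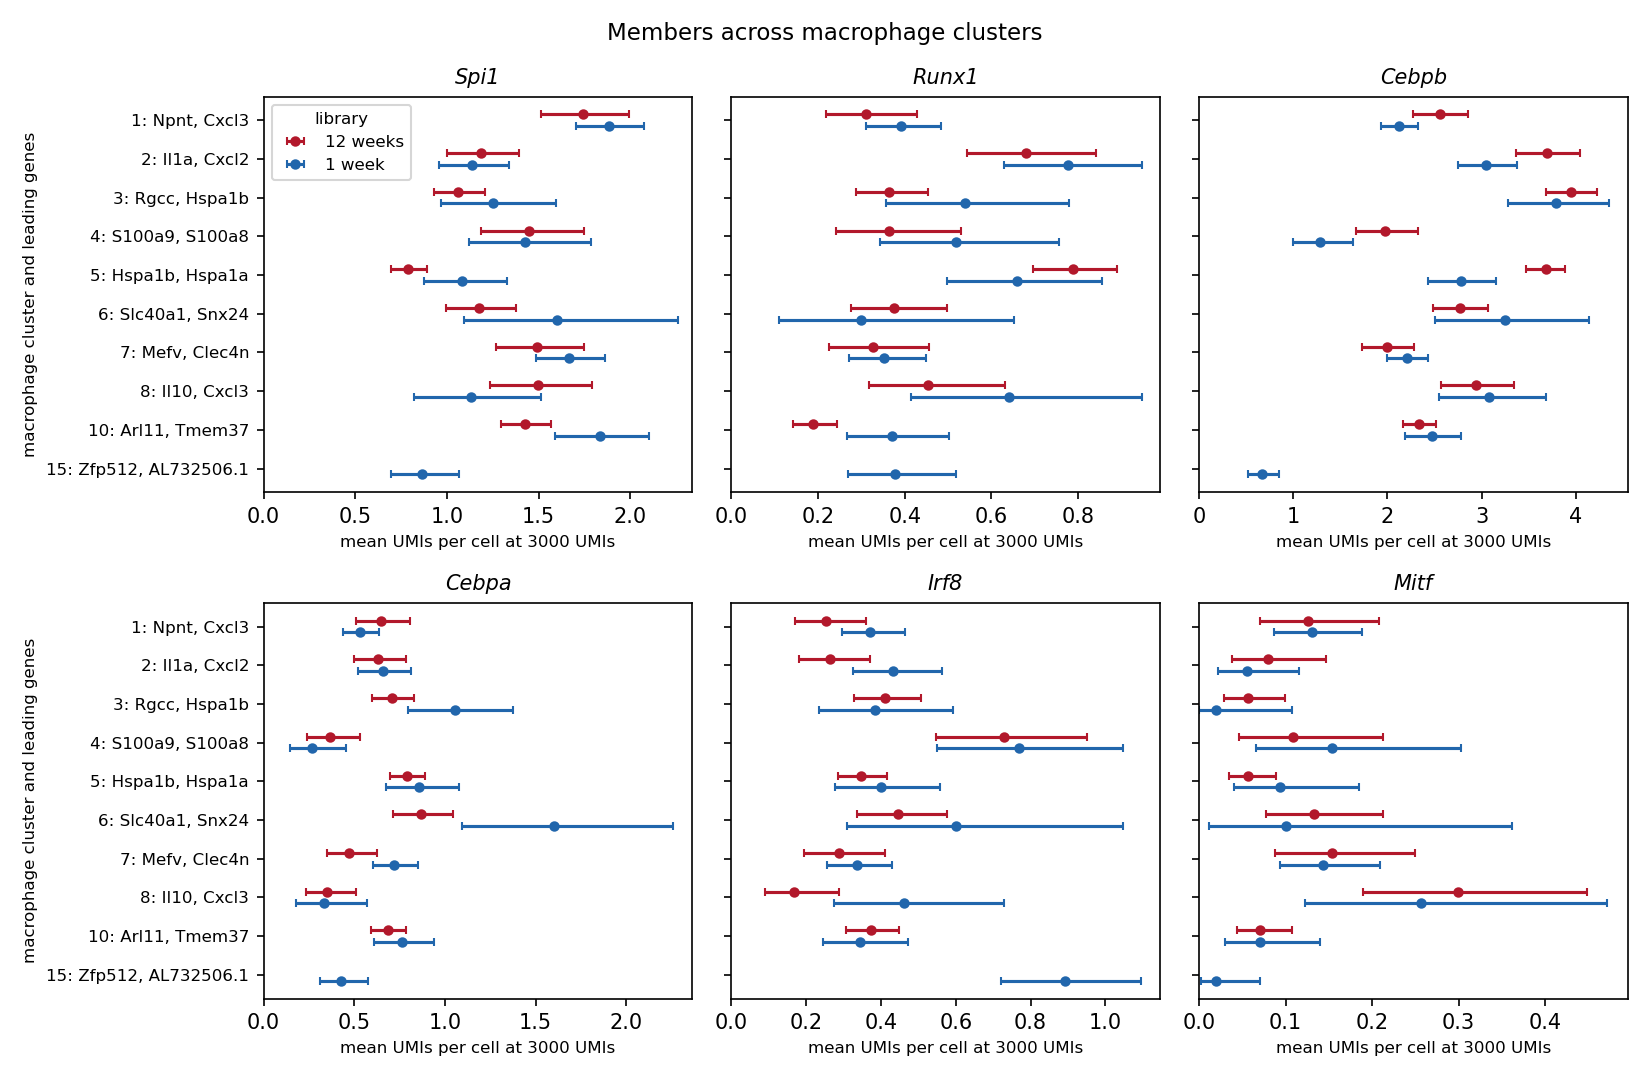
Mean UMIs per cell after thinning to 3000 UMIs of 6 members in the macrophage clusters with at least 20 thinned cells in each library, and in cluster 15, for the 12-week (red, upper) and 1-week (blue, lower) libraries. Bars are exact 95% Poisson intervals and each cluster is named with its 2 leading genes; of the clusters shown with at least 20 thinned cells in each library, Spi1 is lowest in cluster 5 and highest in cluster 1, and Irf8 is highest in cluster 4. In cluster 15, shown for its 1-week cells, Irf8 had 0.893 UMIs per cell. Spi1 had 0.864 there, below the 1.08 of cluster 5 at 1 week.

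One cluster stood apart by library. Cluster 15 had 186 cells, 183 of them from the 1-week library, a median of 3540.5 UMIs and leading genes such as Zfp512 and Ccnb1ip1. Of the thinned 1-week macrophages, 103 (9.80%) belonged to it. There Maf had 0.282 UMIs per cell and Irf8 0.893, while Cebpb had 0.670. Whether this cluster is a cell state or a feature of 1 library cannot be told apart.

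Between the time labels most members differed by less than 1.5-fold in macrophages. The ratio of mean thinned UMIs, 12 weeks over 1 week, was 0.844 for Spi1 (95% counting interval 0.789 to 0.905), 1.36 for Maf (1.03 to 1.82), 1.06 for Cebpa (0.959 to 1.17), 1.34 for Cebpb (1.27 to 1.41), 0.771 for Irf8 (0.681 to 0.873), 0.960 for Runx1 (0.853 to 1.08) and 0.971 for Mitf (0.749 to 1.26). Bhlhe40 stood at 0.609 (0.498 to 0.744), with 0.125 UMIs per cell at 12 weeks and 0.205 at 1 week, and Bhlhe41 at 1.68 (1.32 to 2.16), with 0.152 and 0.0904. These E-box repressors were the members past 1.5-fold, beside 5.82% of 4552 genes at a ratio of at least 1.5 and 5.34% at or below its inverse.

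Neither of those ratios held under every setting. Taken as the expected value over all possible draws of 3000 UMIs, chosen after seeing the data, Bhlhe40 stood at 0.678 and Bhlhe41 at 1.48, and no member was past 1.5-fold. Leaving out macrophages with 2 or more UMIs of B, T or dendritic markers, which leaves 696 and 415 thinned macrophages, gave 1.01 for Bhlhe40 and 0.998 for Bhlhe41. Without cluster 15 the Maf ratio was 2.26, against 1.36 with it. Cebpb lay between 1.23 and 1.40 and Spi1 between 0.770 and 0.844 over the 8 settings. With 1 pool per label, a difference between pools and a difference between labels cannot be told apart.

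**Figure D5:**
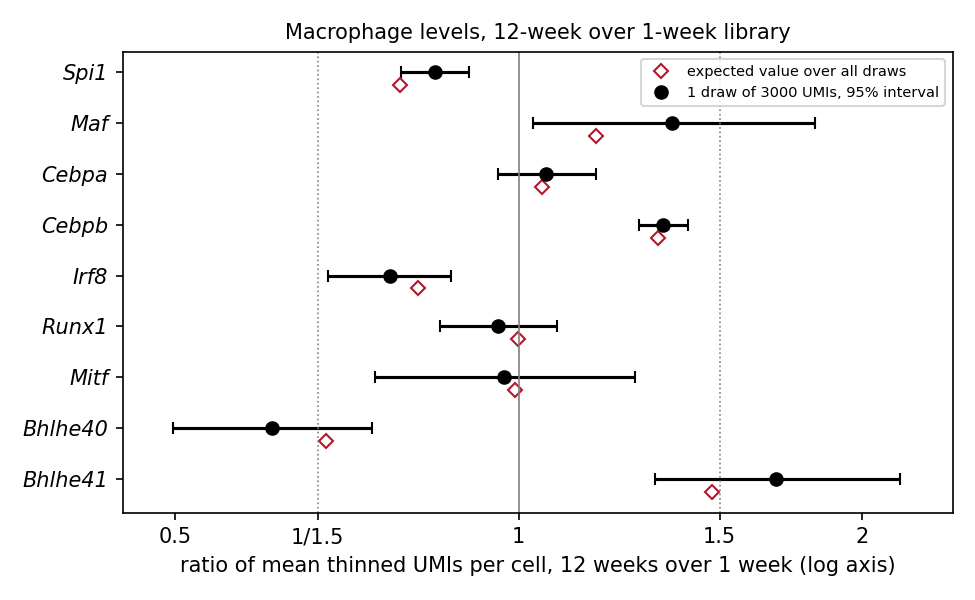
Ratio of mean thinned UMIs per macrophage in the 12-week library over the 1-week library (log axis) for each member. Black points are from 1 draw of 3000 UMIs per cell with 95% intervals of counting error, open diamonds the expected value over all draws, and dotted lines mark 1.5-fold; Bhlhe40 and Bhlhe41 pass the lines as black points (0.609 and 1.68) but not as diamonds (0.678 and 1.48).

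Other transcription factors were counted from lists. Of 32 tested macrophage and myeloid factors, 16 were higher and 7 lower in macrophages than in B cells (median log2 difference 1.08), and 10 were higher and 4 lower than in dendritic cells (median 0.15). Over all genes in the fit, 27.3% were higher and 18.2% lower than in B cells, and 18.1% and 9.79% than in dendritic cells. Against B cells the oxidant response factor Nfe2l2 was higher by 3.98 ± 0.36 (adjusted p = 1.08e-06, edgeR), with 579 and 452 CPM in macrophages at 12 weeks and 1 week and 44.4 and 25.9 in B cells. Klf2 was lower, with a difference of -3.53 ± 0.31 (adjusted p = 9.2e-07, edgeR). Against dendritic cells Atf3 was higher by 2.54 ± 0.35 (adjusted p = 0.000114, edgeR), and Runx3, the paralog of Runx1, was lower, with a difference of -0.69 ± 0.24 (adjusted p = 0.0423, edgeR), where Runx1 was higher.

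Of 8 tested B lineage factors, 7 were lower in macrophages than in B cells at an adjusted p under 0.05 in edgeR. Ebf1, needed for B cell commitment, had 0.09 CPM in 12-week macrophages and 506 in 12-week B cells. Of 6 tested dendritic lineage factors, 1 was higher (Zeb2) and 1 lower (Zbtb18) in macrophages than in dendritic cells, where 18.1% and 9.79% of all genes were.

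Genes that the literature places under these factors were also counted, leaving out class markers, beside 27.3% and 18.1% of all genes higher in macrophages than in B cells and in dendritic cells. The lists are short and overlap: Cd14 is in the C/EBP and the PU.1 lists, and Cybb in the Irf8 and the PU.1 lists. Of 13 listed C/EBP regulated genes 4 were tested, and of 16 listed MiT/TFE regulated genes 8. A gene could pass the expression filter through the macrophage profiles alone, as Trem2 did with 0 CPM in B cells of both libraries. The filter thus partly set the counts that follow, and they were not read as activity of a factor. Of known C/EBP regulated genes, 4 of 4 tested were higher in macrophages than in B cells and 3 of 4 higher than in dendritic cells, among them Cd14 and Tnf. Of known MiT/TFE regulated genes, 8 of 8 and 7 of 8 were higher, among them Trem2, Acp5 and the lysosomal protease gene Ctsd. Of known Irf8 regulated genes, 6 of 7 and 5 of 7 were higher, while Irf8 itself had fewer CPM in macrophages than in B cells; the chemokine gene Ccl5 had 612 CPM in 12-week macrophages and 8.88 in 12-week B cells. Of known PU.1 and Runx1 regulated myeloid genes, 7 of 12 and 5 of 12 were higher, and 1 was lower in each contrast (Btk against B cells and Csf2rb against dendritic cells). Of known c-Maf regulated genes, 2 of 4 were higher than in B cells, and 3 of 4 were higher and 1 lower than in dendritic cells.

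Correlations of these genes with their factor were also taken within macrophages. Of the 15 PU.1 and Runx1 regulated genes found in at least 10% of macrophages, none correlated with Spi1 above 0.1 in either library, with medians of 0.0132 and 0.0305; of all 2501 genes, 1.12% and 2.84% did, with medians of 0.00587 and 0.00459. Of 4 such C/EBP regulated genes, 2 at 12 weeks and 3 at 1 week correlated with Cebpb above 0.1, where 4.12% and 7.04% of all 2501 genes did. With Cebpa none of the 4 did, their medians were -0.0694 and -0.0304, and 1 gene in each library lay below -0.1 (Il1b at -0.101 at 12 weeks and Tnf at -0.113 at 1 week), where 0.28% and 0.6% of all genes did. Summed as a list, the C/EBP regulated genes correlated with Cebpb at 0.139 and 0.190 at 12 weeks and 1 week. Values with Cebpb were higher for the c-Maf (0.383 and 0.367) and MiT/TFE (0.186 and 0.226) regulated lists. The c-Maf sum was mostly Hmox1, with 11.8 and 5.72 UMIs per cell, against 0.808 and 0.754 for Cd36. Hmox1 alone stood at 0.381 and 0.380 with Cebpb, so the c-Maf value describes little beyond that gene. Values with Cebpb were lower for the Irf8 (-0.0991 and 0.00954) and the PU.1 and Runx1 (-0.0137 and 0.0526) lists. The other macrophage and myeloid factors, also summed, stood at 0.268 and 0.198. Correlation with Cebpb was thus not particular to the C/EBP list.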

How the data were processed

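Single-cell RNA from 2 libraries of sorted islet immune cells was analysed. The deposited matrices hold raw UMI counts per gene and barcode; they were made with Cell Ranger on mm10 per the submitters' processing notes, and the matrix header gives software version 3.1.0. Barcodes were kept if they had 500 or more genes, 1000 or more UMIs and no more than 10% of UMIs from mitochondrial genes. Scrublet and Leiden clustering (scanpy 1.11.5; 2000 genes without the members, 30 components, 15 neighbours, resolution 1) gave the classes. Clusters with over 60% macrophage marker detection were taken as macrophages.

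Counts summed per library and class were tested with edgeR 4.0.16 (R 4.3.3; TMM, filterByExpr, library block, Benjamini-Hochberg adjustment over 3034 genes); SEs were derived from the F statistic. The library pairs the classes, since its classes come from the same pool. Because classes were drawn from the same cells, p-values are smaller than for groups known beforehand. For levels, cells were thinned to 3000 UMIs (seed 1). Intervals are exact 95% Poisson or Clopper-Pearson and cover counting error only. Simulated data had the same fixed spread for every gene and no difference between libraries, so the rates need not hold for the real data. With 2738 genes tested, 4-fold changes were recovered for 62.7% of changed genes against B cells and 81.9% against dendritic cells. For 2-fold changes the shares were 7.69% and 16.9%. Of the simulated calls, 6.56% against B cells and 2.47% against dendritic cells were false.

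The named genes are the 9 members, the 3 genes most correlated with each, and listed genes that passed the test, at most 5 per direction, list and contrast. One gene that this rule names is not reported here. The members and lists were chosen with earlier results of these data known.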

Additional observations from a re-analysis of the deposited data

Results flagged for a closer look

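Some differences between classes ran in opposite directions in the 12-week and 1-week libraries, and with 1 library per time label this was not tested. For Bhlhe40, macrophages minus B cells, the log2 ratio of CPM was -0.963 at 12 weeks and 0.961 at 1 week. The 12-week B cells held 10 Bhlhe40 UMIs in 3 cells, 8 of them in 1 cell; with the richest B cell left out of each library the ratios were 1.30 and 1.74, in the same direction. For Spi1, macrophages minus dendritic cells, it was -0.0952 and 0.155. For Irf8, macrophages minus dendritic cells, it was -0.444 and 0.570.

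T cells with fewer than 5 C1q UMIs, 40 at 12 weeks and 10 at 1 week, entered no comparison above and also held UMIs of members. Maf had 62.1 and 198 CPM, against 29.9 and 25.2 in macrophages. Cebpb had 158 and 463 in T cells, and Irf8 84.6 and 165. Groups of 1 library allow no search for outlying samples.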

How the results depend on the processing

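With the library block left out, 790 genes were higher and 525 lower in macrophages than in B cells, and 482 and 254 than in dendritic cells, and no member's call changed. Without a filter on low counts, 1414 genes were higher and 344 lower than in B cells, 6 members were higher than in B cells and 5 than in dendritic cells, and 0 members were lower than in B cells (Irf8 at an adjusted p of 0.107). DESeq2 called 314 genes higher than in dendritic cells. Members higher than in dendritic cells numbered 2 with T cells added and 2 under the stricter cell filter, which left 324 genes lower than in B cells. With no C1q limit on B and dendritic cells, edgeR called 0 genes higher and 107 lower than in B cells, with 0 members higher and 0 lower, and 9 genes higher (1 member) and 106 lower than in dendritic cells. At an unadjusted p under 0.05, 578 genes were higher and 506 lower than in B cells, and 419 and 440 than in dendritic cells. With B and dendritic cells gated by markers, 397 genes were higher and 159 lower than in B cells, 2 members were higher (Spi1 and Cebpa), and 350 genes were higher than in dendritic cells. Runx1 against dendritic cells was past the threshold in 7 of 13 alternatives, while Bhlhe40 against dendritic cells was called in 13 of 13. With the B cell richest in the gene left out of each library, chosen after seeing the data, Irf8 against B cells was no longer called. Under the same setting Bhlhe40 was called higher and Cebpb was still called higher. Each library alone gives a value with no test.

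Members past 1.5-fold between the time labels numbered 2 as reported, 3 with the cluster of 1 library left out (Maf at 2.26), 1 by share of all UMIs, 1 with at least 20 C1q UMIs, 1 under the stricter filter, and 0 with mixed droplets left out, by TMM scaling or by the expected value over all draws. With mixed droplets left out, Bhlhe40 stood at 1.01 and Bhlhe41 at 0.998. The cause of these changes was not tested. The numbers of B and dendritic cells limit the precision.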
